A study of Mus musculus with 30 samples.

Results

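Germline and meiosis genes are 42 genes of the 25400 in the count table, chosen by symbol as genes that act in germ cells, in the piRNA pathway, in meiotic chromosomes or in sperm formation. The rule uses symbols and no measured value, but the 42 genes were chosen with earlier results of these data known. All 42 were found in the table, and all 42 passed the filter on low counts, which 16582 genes passed. They were followed in poly(A) RNA-seq of cells at the neural progenitor (NPC) stage of in vitro differentiation from mouse embryonic stem cells (ESCs), with 24 libraries, 3 for each of 8 lines. The lines were WT, Mbd3 KO, and Mbd3 KO cells with 1 of 6 re-expressed proteins, MBD3a, MBD3dMBD, MBD2a, MBD2adGR, MBD2aR181C or MBD2t. MBD2 and MBD3 are alternative subunits of the NuRD complex, which joins histone deacetylase and nucleosome remodelling activity, and MBD2 binds methylated DNA. MBD3dMBD lacks the methyl-CpG-binding domain, MBD2adGR lacks the glycine- and arginine-rich region of MBD2a, MBD2aR181C is a point mutant of MBD2a, and MBD2t is the truncated MBD2 isoform. No treatment other than the differentiation was applied, and all lines share the HA36CB1 ESC background, a cross of 129 and C57BL/6 mice. Each of the re-expression lines carries its construct at 1 defined genomic site under the strong CAG promoter, and each also lacks endogenous MBD3. The WT, Mbd3 KO and other libraries come from separately derived clones, except that the 3 MBD2t libraries are repeats of 1 clone, so the spread of MBD2t holds no difference between clones. Libraries are named here by the number of their count column, s01 to s24.

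Germline genes are silent in most somatic cells. Many have CpG-rich promoters that become methylated when the embryo implants, and a Polycomb complex that contains E2F6, MGA and MAX also acts at many of them through E2F and E-box sequences. ESCs already transcribe part of this set at a low level, and loss of DNA methylation or of that complex is known to raise it. The genes fall into 6 groups by role. These are germ cell identity and translation (6 genes), the piRNA pathway and nuage (13), the synaptonemal complex and chromosome axis (7), meiotic cohesin (3), meiotic recombination (6), and spermatogenic and testis proteins (7).

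Libraries of 1 line did not behave alike, and this bears on every comparison that follows. Totals lay between 27993858 and 49392806 counts, so that 3 counts, the lowest number read as signal, stood for between 0.0607 and 0.115 CPM, which are counts scaled to a library of 1000000. In each library the difference of every gene's log2 CPM from its WT mean was taken, and the median over the 42 genes was -0.62, -0.07 and 0.84 in the WT libraries s01, s02 and s03. Over the MBD2aR181C libraries s19, s20 and s21 it was -0.20, 1.87 and 0.60. Library s03 held the highest WT value of 32 of the 42 genes, and s20 held the highest MBD2aR181C value of 37. The median of all tested genes lay between -0.01 and 0.03 on the same scale in these 6 libraries.

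The cells labelled NPC were checked with marker lists. The summed CPM of 8 neural progenitor markers was 898 to 1144 in WT and 66.3 to 107 in Mbd3 KO, where 4 of the 8 stayed under 1 CPM in every library. It was 73.6 to 159 in MBD2a, 94.4 to 111 in MBD2t and 496 or more in every library of the other lines, so the label NPC names the stage of the protocol and not the marker content of these 3 lines. All 8 of these markers fell in Mbd3 KO, and all 8 pluripotency markers rose. Of the other lists, 6 of 7 trophoblast markers rose and 1 fell, 1 of 8 primitive endoderm markers rose, 3 of 6 fibroblast and feeder markers fell, and 4 of 7 gonadal somatic markers rose and 1 fell. Of all tested genes, 19.6% rose and 14.2% fell in Mbd3 KO, so 1 of 8 endoderm markers (12.5%) was under that share. In bulk RNA, fewer cells of a type and less RNA per cell cannot be told apart. The deleted gene itself was read at 34.2 to 73.8 CPM in Mbd3 KO and 149 to 157 CPM in WT, and at 168 to 198 CPM in MBD3a and 423 to 496 CPM in MBD3dMBD, so every Mbd3 KO library was below WT without being free of Mbd3 reads. Mbd2 stood at 64.2 to 70.9 CPM in Mbd3 KO, 40.8 to 50.4 CPM in WT, 67.0 to 87.2 CPM in MBD2a, 280 to 700.2 CPM in MBD2adGR, 253 to 325 CPM in MBD2aR181C and 335 to 356 CPM in MBD2t, so the MBD2 lines differed in Mbd2 reads, and MBD2a lay close to Mbd3 KO. How much of each construct these reads cover was not tested. They are RNA at the NPC stage, and in ESCs the paper reports equal protein levels of MBD2a and MBD2adGR by western blot.

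Removing MBD3 went with more RNA of most germline genes. Against WT, 25 of the 42 genes rose in Mbd3 KO (59.5%) where 19.6% of all tested genes did, 3 fell where 14.2% of all tested genes did, and 14 were not called. Genes were called where the quasi-likelihood test of edgeR gave a p-value under 0.05 after Benjamini-Hochberg adjustment over all tested genes and the log2 fold change was beyond 1 in either direction. The median log2 fold change was 1.69 for the 42 genes and -0.03 for all tested genes. The values of Mbd3 KO and WT were fully apart for 34 of the 42 genes, as for 62.2% of all tested genes, and 30 of these 34 lay above WT. The test recovered 15 of 69 simulated 2-fold changes and 63 of 69 simulated 4-fold changes between these lines. A 2-fold change lies on the log2 threshold of 1 itself, which also limits its recovery. Recovery at the spread that the 42 genes show between libraries was not tested. A gene that was not called may still have changed. Under every alternative that was run, 14 of the 28 calls held, namely Asz1, Dazl, Piwil2, Rec8, Rpl10l, Slc25a31, Smc1b, Stag3, Sycp2, Tdrd1, Tdrd9, Tdrkh, Tex14 and Tex15. Asz1 among them had 0 to 5 counts in WT libraries and passed the filter on low counts only through lines where it was high. Without the WT library s01 the calls of Ddx4, Stra8, Tdrd5, Tdrd12, Mov10l1, Sycp1, Syce1, Hsf2bp and Dpep3 were lost, with adjusted p-values from 0.0554 to 0.165. Those of Ddx4, Stra8, Tdrd12, Mov10l1, Sycp1, Syce1 and Hsf2bp were also lost without s02. Leaving out the Mbd3 KO library s04 lost the calls of Ddx4, Piwil1, Tdrd12, Mov10l1, Sycp1 and Hsf2bp. Fewer were lost without s03, s05 or s06. The calls of Dmc1, Dnd1 and Piwil4 were lost only when the test was made against a log2 fold change of 1.

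**Figure D1:**
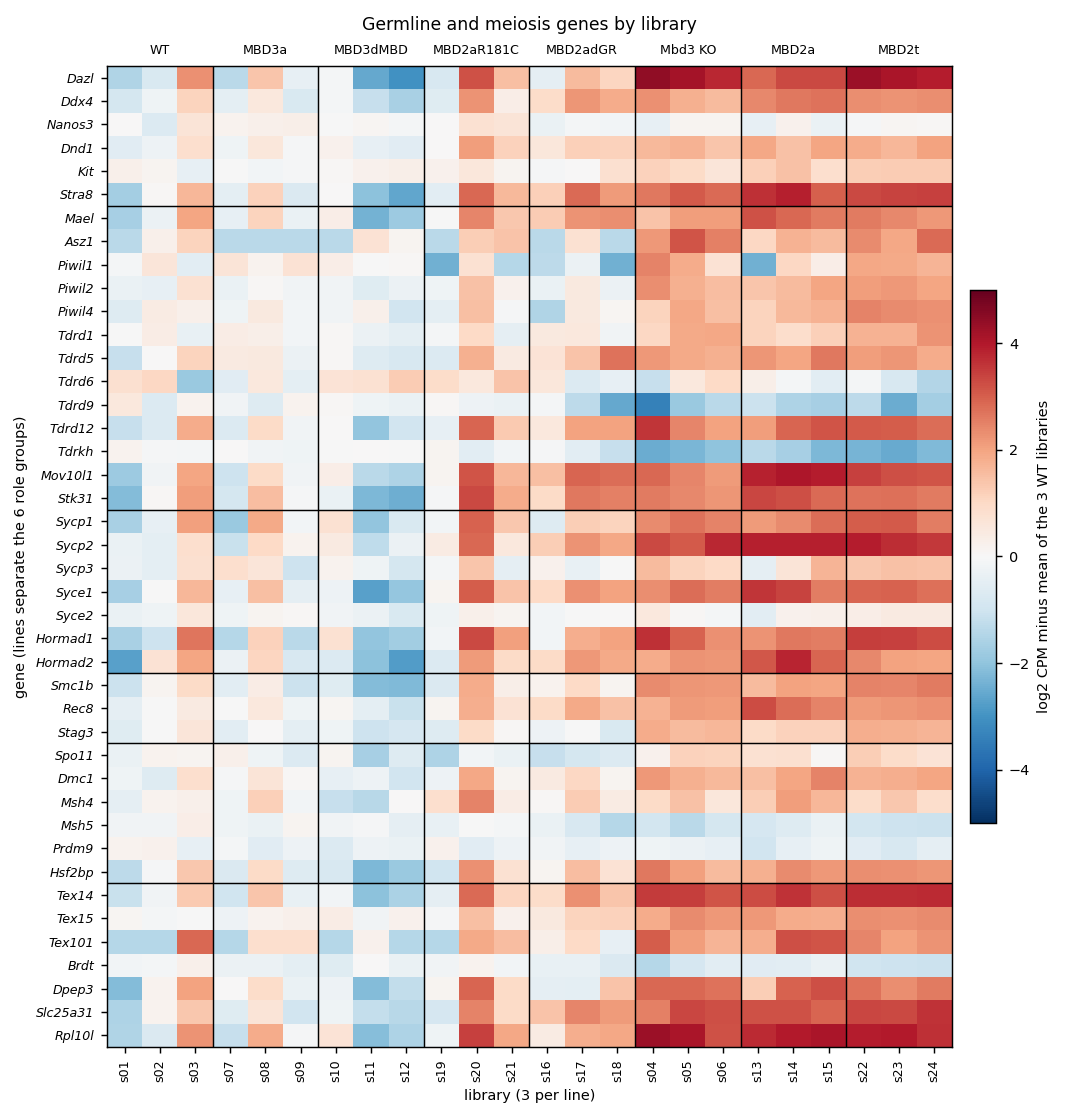
Heat map of the 42 genes (rows, split by role) in 24 libraries (columns, 3 per line), coloured by log2 CPM minus the mean of the 3 WT libraries. The Mbd3 KO, MBD2a and MBD2t columns are red for most genes, Tdrkh and Tdrd9 are blue there, and s03 and s20 are redder than the other libraries of their lines.

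Dazl, which encodes an RNA-binding protein that drives translation in germ cells, was the member of the identity group with the largest increase. Its level was 0.751, 1.27 and 10.6 CPM in WT and 47.1, 39.5 and 29.9 CPM in Mbd3 KO. The groups did not overlap, although s03 lay well above the other WT libraries. The log2 fold change was 3.18 ± 0.85 (SE; edgeR adjusted p = 0.00332). Ddx4, the germ cell RNA helicase known as VASA, was at 1.53, 2.45 and 6.28 CPM in WT and at 14.2, 9.83 and 8.65 CPM in Mbd3 KO. It rose by 1.65 ± 0.57 (adjusted p = 0.0180), again without overlap of the groups. Stra8, which is induced by retinoic acid at meiotic entry, was the most abundant of the 42 per kilobase of exon, with 87.7 CPM per kilobase in WT and 427 in Mbd3 KO.

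Stra8 was read at 32.4, 109 and 333 CPM in WT and at 662, 892 and 752 CPM in Mbd3 KO. Every Mbd3 KO library lay above every WT library, and the WT values spread over a wide range. The log2 fold change was 2.28 ± 0.83 (adjusted p = 0.0229). Dnd1, which encodes a germ cell RNA-binding protein, was at 1.23, 1.57 and 3.34 CPM in WT and at 5.86, 6.22 and 4.97 CPM in Mbd3 KO. It rose by 1.46 ± 0.40 (adjusted p = 0.00442), with the groups apart. Kit, the receptor of stem cell factor, was at 91.1, 85.6 and 58.4 CPM in WT and at 170.2, 148 and 118 CPM in Mbd3 KO. Its log2 fold change of 0.89 ± 0.21 (adjusted p = 0.00142) did not reach the threshold on fold change. Nanos3, which guards primordial germ cells from death, was at 0.935 to 2.39 CPM in WT and at 1.14 to 1.69 CPM in Mbd3 KO, with overlap and without a call.

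The piRNA pathway makes small RNAs that silence transposons in the male germline, and nuage is the cytoplasmic granule where much of it takes place. In this group 8 of 13 genes rose and 2 fell, where 19.6% and 14.2% of all tested genes did. Piwil2, a PIWI protein that binds piRNAs, was at 2.25, 2.17 and 4.85 CPM in WT and at 14.5, 9.87 and 8.52 CPM in Mbd3 KO. The lowest Mbd3 KO library lay above s03, and the log2 fold change was 1.81 ± 0.36 (adjusted p = 3.21e-04). Tdrd1, a Tudor protein of nuage, was at 0.913, 1.21 and 0.706 CPM in WT and at 1.92, 3.54 and 3.62 CPM in Mbd3 KO. Here s03 was the lowest WT library, and the log2 fold change was 1.70 ± 0.33 (adjusted p = 2.43e-04).

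Tdrd12, which acts in secondary piRNA production, was at 0.268, 0.385 and 2.39 CPM in WT and at 7.92, 3.63 and 2.67 CPM in Mbd3 KO. Mov10l1, the helicase that processes piRNA precursors, was at 0.161, 0.550 and 2.56 CPM in WT and at 4.72, 3.52 and 2.83 CPM in Mbd3 KO. For both genes s03 came close to the lowest Mbd3 KO library without reaching it. The difference was 2.17 ± 0.71 (log2) for Tdrd12 (adjusted p = 0.0129) and 1.71 ± 0.66 for Mov10l1 (adjusted p = 0.0330).

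Tdrd5, another nuage Tudor protein, was at 0.886, 2.04 and 4.36 CPM in WT and at 9.12, 7.48 and 6.96 CPM in Mbd3 KO. The groups were apart, and it rose by 1.67 ± 0.54 (adjusted p = 0.0124). Mael, which is needed for transposon silencing, was at 0.295, 0.825 and 3.97 CPM in WT and at 2.72, 4.40 and 4.42 CPM in Mbd3 KO. Here s03 reached into the Mbd3 KO range, and the gene was not called (log2 fold change 1.15 ± 0.64, adjusted p = 0.128). Mael and Tdrd5 are both on chromosome 1. In each library, its 807 tested genes with a mean of at least 1 CPM were compared with the mean of the other libraries of the line. The median deviation was -0.40 in s04, 0.30 in s06 and -0.37 in the MBD2a library s15 (log2). What this added to the values of both genes in Mbd3 KO and MBD2a was not tested. Asz1, Piwil1 and Piwil4 were also called higher, at means under 1 CPM in both lines. Asz1 was read at 0 to 5 counts in WT and 10 to 26 in Mbd3 KO. Its WT mean of 0.0589 CPM lay under the floor of 3 counts. Outside Mbd3 KO and MBD2t no library held more than 7 counts of Asz1, which passed the filter through those lines. Piwil1 was read at 3 to 7 counts in WT and 8 to 27 in Mbd3 KO.

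Tdrkh and Tdrd9 went the other way. Tdrkh encodes a mitochondrial Tudor protein that helps to trim piRNA precursors, and it was at 50.8, 42.8 and 41.6 CPM in WT and at 8.09, 9.10 and 11.1 CPM in Mbd3 KO. The groups were far apart, since no Mbd3 KO library came near WT and s03 did not stand apart. The log2 fold change was -2.26 ± 0.24 (adjusted p = 6.22e-07), the smallest p-value of the 42. Tdrd9, a helicase that works with a PIWI protein in the nucleus, was at 2.09, 0.880 and 1.61 CPM in WT and at 0.114, 0.376 and 0.555 CPM in Mbd3 KO. It fell with a log2 fold change of -2.10 ± 0.48 (adjusted p = 0.00103).

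Of the genes of the synaptonemal complex, the ladder that holds paired chromosomes together, and of the chromosome axis, 3 of 7 rose and none fell. The shares of all tested genes were 19.6% and 14.2%. Sycp2, an axis protein, was at 0.188, 0.165 and 0.463 CPM in WT and at 2.66, 2.24 and 3.65 CPM in Mbd3 KO. The groups were far apart, and the log2 fold change of 3.33 ± 0.54 (adjusted p = 4.14e-05) was the largest increase among the 42. Syce1, a central element protein, was at 0.268, 0.908 and 2.95 CPM in WT and at 4.63, 6.46 and 5.53 CPM in Mbd3 KO. It rose by 1.98 ± 0.67 (adjusted p = 0.0152), with the groups apart.

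Sycp1, the transverse filament protein, was at 0.0805, 0.220 and 1.34 CPM in WT and at 1.66, 2.17 and 1.80 CPM in Mbd3 KO. The groups were apart with s03 close to Mbd3 KO, and the call was narrow (log2 fold change 1.72 ± 0.72, adjusted p = 0.0453). DESeq2 did not call it (adjusted p = 0.0732). Sycp3 was at 1.05, 0.935 and 2.26 CPM in WT and at 4.00, 2.85 and 2.62 CPM in Mbd3 KO. These groups did not overlap, yet the change was not called (log2 fold change 1.13 ± 0.51, adjusted p = 0.0620).

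The Sycp3 values are uncertain, since 660 of its 1264 exon bases overlap exons of Chpt1 on the opposite strand and the strand setting of the counting is not given in the sources used here. Chpt1 itself was at 18.4 ± 4.63 CPM in WT and 32.6 ± 2.47 CPM in Mbd3 KO (mean ± SD, n = 3 each). Syce2, another central element protein, was among the most abundant of the 42, at 26.7 ± 9.64 CPM in WT and 29.4 ± 6.82 CPM in Mbd3 KO (n = 3 each), and was not called. Hormad1 and Hormad2, which mark unpaired axes, had log2 fold changes of 1.77 and 1.17 and were not called.

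Every gene of meiotic cohesin, the ring that holds sister chromatids together through meiosis, rose, where 19.6% of all tested genes did. Rec8, its kleisin subunit, was at 34.4, 45.6 and 63.7 CPM in WT and at 156, 203 and 196 CPM in Mbd3 KO. The groups were well apart and the log2 fold change was 1.95 ± 0.38 (adjusted p = 2.12e-04). Stag3, the meiotic stromal antigen subunit, was at 11.004, 16.5 and 25.5 CPM in WT and at 60.3, 49.7 and 52.8 CPM in Mbd3 KO. Its log2 fold change was 1.62 ± 0.32 (adjusted p = 3.01e-04). Smc1b, the meiotic form of an SMC subunit, was at 1.80, 4.26 and 7.50 CPM in WT and at 20.2, 17.8 and 17.3 CPM in Mbd3 KO. It rose by 2.02 ± 0.52 (adjusted p = 0.00256), and neither gene had overlapping groups.

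Of the meiotic recombination genes, 2 of 6 rose and 1 fell, where 19.6% and 14.2% of all tested genes did. With 6 genes the 1 that fell is near that share. Dmc1, the meiotic strand exchange protein, was at 1.23, 0.908 and 2.58 CPM in WT and at 6.43, 5.02 and 4.42 CPM in Mbd3 KO. It rose by 1.72 ± 0.45 (adjusted p = 0.00310), without overlap. Hsf2bp, a partner of the recombination protein BRCA2, was at 1.29, 3.11 and 8.16 CPM in WT and at 20.2, 13.4 and 9.63 CPM in Mbd3 KO. The log2 fold change was 1.77 ± 0.64 (adjusted p = 0.0231), and s03 lay near the lowest Mbd3 KO library.

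Msh5, a mismatch repair homologue that stabilises crossover intermediates, was at 4.11, 4.13 and 5.84 CPM in WT and at 2.46, 1.79 and 2.49 CPM in Mbd3 KO. All Mbd3 KO libraries lay below WT, and it fell with a log2 fold change of -1.07 ± 0.24 (adjusted p = 8.82e-04). Without s03 or s05 the fold change no longer passed the threshold. Prdm9, the methyltransferase that places recombination hotspots, was at 5.66 ± 1.32 CPM in WT and 4.48 ± 0.312 CPM in Mbd3 KO (n = 3 each), without a call. Spo11, which makes the meiotic breaks, and Msh4, the partner of Msh5, stayed under 1 CPM in both lines and were not called.

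Of the spermatogenic and testis genes, 5 of 7 rose, where 19.6% of all tested genes did. Tex14, which keeps the bridges between germ cells open, was at 0.832, 1.62 and 4.67 CPM in WT and at 21.1, 20.9 and 16.8 CPM in Mbd3 KO. The gap between the groups was wide, with a log2 fold change of 3.02 ± 0.66 (adjusted p = 6.85e-04). Slc25a31, which encodes the germ cell form of the mitochondrial ADP/ATP carrier, was at 0.107, 0.413 and 0.950 CPM in WT and at 2.20, 3.92 and 3.57 CPM in Mbd3 KO. It rose by 2.69 ± 0.55 (adjusted p = 3.77e-04) with no overlap. Tex15, which takes part in transposon silencing in the male germline, was at 4.72, 4.21 and 4.43 CPM in WT and at 16.3, 22.8 and 19.9 CPM in Mbd3 KO. Its WT libraries were nearly equal, unlike those of most of the 42, and the log2 fold change was 2.14 ± 0.30 (adjusted p = 9.29e-06).

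Rpl10l was at 0.322, 0.578 and 4.75 CPM in WT and at 19.6, 16.97 and 9.10 CPM in Mbd3 KO, apart and with a log2 fold change of 2.98 ± 0.79 (adjusted p = 0.00338). It is an intronless copy of Rpl10, which stood at 699 ± 174 CPM in WT and 573 ± 15.2 CPM in Mbd3 KO, and reads shared by the pair make the values of Rpl10l uncertain. Brdt, a testis bromodomain protein, had a log2 fold change of -0.90 ± 0.21 (adjusted p = 0.00126) and missed the threshold on fold change. Dpep3 was called higher at under 1 CPM, and Tex101, at under 1 CPM, was not called.

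**Figure D2:**
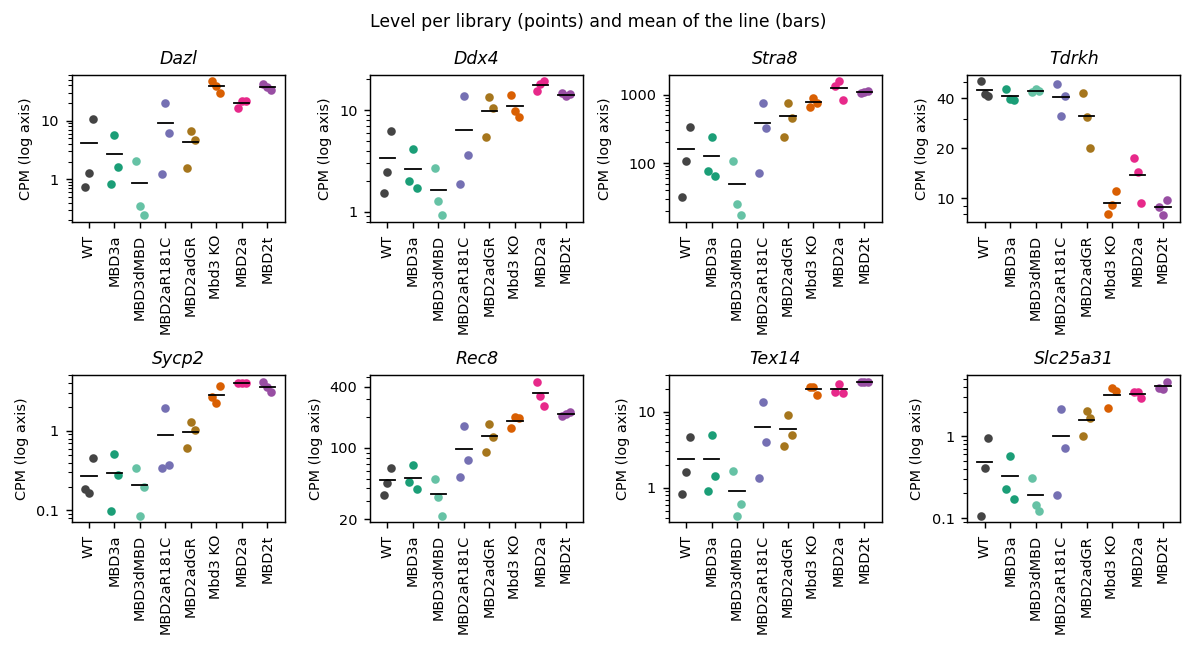
Level in CPM (log axis) of 8 of the genes in each library (points) with the mean of the line (bar), 8 lines on the horizontal axis. In Mbd3 KO, MBD2a and MBD2t the points lie above those of WT for every gene shown but Tdrkh, which is at 41.6 to 50.8 CPM in WT and 8.09 to 11.1 CPM in Mbd3 KO.

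The promoters of these genes were read next. The set was drawn up as germ cell genes that are often silenced by methylation of their promoters, so CpG content is not independent of the choice and is given as a description, as are the sequence matches. A table of RefSeq promoters (GRCm38.p6), each with 250 bases before and 50 bases after the start of the gene, held 37 of the 42 genes, and each of the 37 windows matched NCBIM37 (mm9) exactly once. Tdrd6, Tex15, Piwil2, Spo11 and Dnd1 had no entry. Windows were searched on both strands for the E-box CACGTG, which reads the same on either strand, and for the E2F sequence GCGGGAA, which shares no match with it. The E-box was found in 13 of 37 windows (35.1%) and in 8.36% of the 16650 windows of genes in the count table. The E2F sequence was found in 12 of 37 (32.4%) and in 6.40% of all windows. Either was found in 20 of 37 (54.1%) against 14.1%, and both in 5 of 37 (13.5%) against 0.619%. Among the genes that rose in Mbd3 KO, 12 of 22 windows (54.5%) held either sequence, among those not called 6 of 12 (50%) did, and among those that fell 2 of 3 did, with the E-box in the window of Tdrd9 and the E2F sequence in that of Msh5. The ratio of observed to expected CpG had a median of 0.700 in the 37 windows and 0.610 in all windows, and 26 of 37 (70.3%) reached 0.6 against 51.0% of all. A match is a description of letters, and binding was not measured in these data.

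The sequences of 6 promoters outside the annotated span of their own gene follow. Each is the 250 bases before the start on the strand of the gene, with E-box and E2F matches in capitals. They were chosen after their values were seen, to show a gene with both sequences and a rise (Ddx4), one with both and no call (Hormad1), one with the E-box only (Mael), one with the E2F sequence only (Hsf2bp), a gene with neither and a large rise (Dazl), and a gene with neither that fell (Tdrkh, unlike Tdrd9 and Msh5). In mm9 they lie at chr13:113442519-113442768 (minus strand), chr3:95363349-95363598 (plus), chr1:168168876-168169125 (minus), chr17:32171454-32171703 (minus), chr17:50432946-50433195 (minus) and chr3:94216916-94217165 (plus).
Ddx4: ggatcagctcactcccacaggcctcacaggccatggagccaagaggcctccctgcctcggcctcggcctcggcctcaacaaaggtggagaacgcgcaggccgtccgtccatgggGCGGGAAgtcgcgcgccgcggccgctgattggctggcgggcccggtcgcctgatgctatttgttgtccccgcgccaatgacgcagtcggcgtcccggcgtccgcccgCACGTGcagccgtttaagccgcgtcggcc
Hormad1: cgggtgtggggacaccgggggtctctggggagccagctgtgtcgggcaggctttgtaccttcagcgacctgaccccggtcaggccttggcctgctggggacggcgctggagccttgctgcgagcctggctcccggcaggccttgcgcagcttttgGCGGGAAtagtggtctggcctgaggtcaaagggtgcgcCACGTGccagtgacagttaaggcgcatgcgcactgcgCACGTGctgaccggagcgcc
Mael: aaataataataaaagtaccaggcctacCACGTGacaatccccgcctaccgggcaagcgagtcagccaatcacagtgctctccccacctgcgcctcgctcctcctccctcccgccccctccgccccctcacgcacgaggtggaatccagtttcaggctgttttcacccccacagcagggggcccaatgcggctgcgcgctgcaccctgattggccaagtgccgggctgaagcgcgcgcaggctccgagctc
Hsf2bp: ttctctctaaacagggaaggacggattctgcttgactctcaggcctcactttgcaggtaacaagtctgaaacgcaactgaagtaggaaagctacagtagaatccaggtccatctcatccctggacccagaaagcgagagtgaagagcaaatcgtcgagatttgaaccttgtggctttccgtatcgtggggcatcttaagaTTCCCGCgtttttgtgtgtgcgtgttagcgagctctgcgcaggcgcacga
Dazl: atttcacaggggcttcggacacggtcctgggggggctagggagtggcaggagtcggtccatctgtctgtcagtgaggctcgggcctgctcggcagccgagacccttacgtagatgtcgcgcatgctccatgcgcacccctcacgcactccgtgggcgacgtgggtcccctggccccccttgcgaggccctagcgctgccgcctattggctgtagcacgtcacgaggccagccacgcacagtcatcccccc
Tdrkh: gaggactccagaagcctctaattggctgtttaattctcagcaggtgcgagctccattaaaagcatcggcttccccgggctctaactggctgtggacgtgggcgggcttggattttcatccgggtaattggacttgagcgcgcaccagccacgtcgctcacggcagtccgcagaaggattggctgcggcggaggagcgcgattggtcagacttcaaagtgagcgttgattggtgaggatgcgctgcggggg

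The Hormad1 stretch holds the E-box at 2 places, and the Dazl window had an observed to expected CpG ratio of 0.795 against 0.956 for Tdrkh. Dazl and Tdrkh moved in opposite directions in Mbd3 KO, and neither stretch held either sequence.

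**Figure D3:**
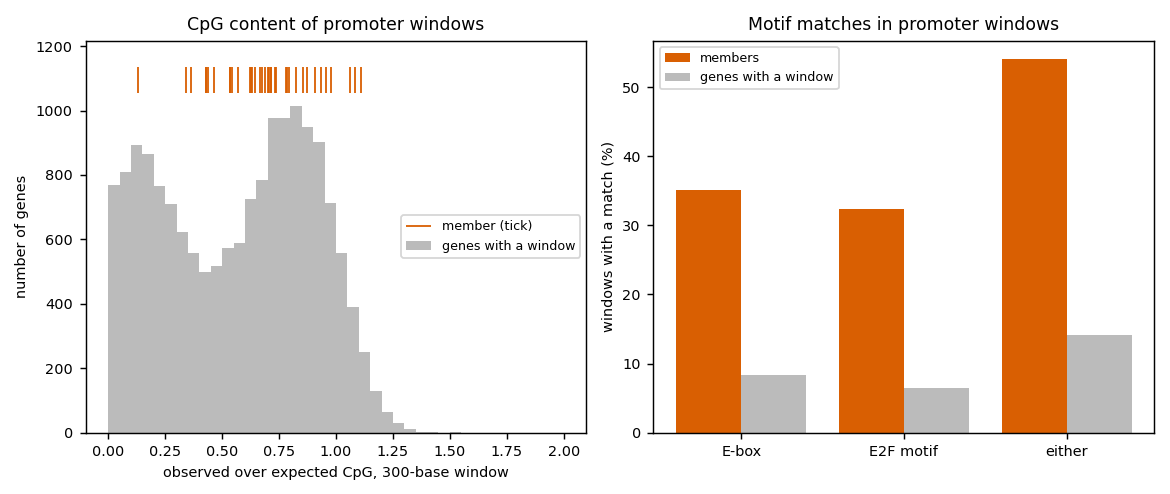
Left, number of genes (vertical axis) by observed over expected CpG of the 300-base promoter window (horizontal axis), in grey for the 16650 windows and with ticks for the 37 members. Right, percent of windows with a motif match, where the E-box was in 35.1% of member windows and 8.36% of all, and the E2F sequence in 32.4% and 6.40%.

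In MBD3a most germline genes were below Mbd3 KO. The libraries of MBD3a and WT were fully apart for 1 of the 42, as for 5.18% of all tested genes. Against WT, none was called, as 0.0% of all tested genes were in either direction, and none had an unadjusted p-value under 0.05, as 1.77% of all tested genes did, or was called by DESeq2. The median log2 fold change was -0.24. Against Mbd3 KO, 28 of the 42 fell in MBD3a where 18.9% of all tested genes did, and 2 rose, Tdrkh and Tdrd9, where 13.5% did. Dazl was at 0.848, 5.74 and 1.63 CPM in MBD3a, and only s08 came near the WT library s03. Its log2 fold change against Mbd3 KO was -3.83 ± 0.90 (adjusted p = 0.00141). Tdrkh was at 45.4, 39.6 and 38.9 CPM, inside or just under the range of WT and above all of Mbd3 KO, with a log2 fold change of 2.13 ± 0.24 against Mbd3 KO (adjusted p = 1.42e-06).

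The germline genes were also far below Mbd3 KO in MBD3dMBD. None of the 42 was called against WT by edgeR or DESeq2, beside 0.0% of all tested genes called higher and 0.0181% called lower, and 7 had an unadjusted p-value under 0.05, all with a negative log2 fold change, beside 7.16% of all tested genes in either direction. The median log2 fold change of the 42 was -0.73, with 4 of the 42 above 0. Stra8 was at 107 CPM in s10 but at 25.3 and 17.3 CPM in s11 and s12, under every WT library. Against Mbd3 KO, 33 fell where 20.9% of all tested genes did, and Tdrkh and Tdrd9 rose where 15.0% did. MBD3a and MBD3dMBD are both compared with the same Mbd3 KO and WT libraries, so these counts are not independent of each other.

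In MBD2a most germline genes stood above WT, and the median difference from Mbd3 KO was 0.00 on the log2 scale. Against WT, 27 of the 42 rose where 16.9% of all tested genes did, and 2 fell, Tdrkh and Tdrd9, where 13.7% did. Over the 42 genes the median was 1.66 (log2). Against Mbd3 KO none was called by edgeR or DESeq2, beside 0.856% of all tested genes called higher and 4.4% called lower, and 6 had an unadjusted p-value under 0.05, a smaller share than the 22.6% of all tested genes. The 3 comparisons of Mbd3 KO, MBD2a and MBD2t with WT share the WT libraries, and their values stand side by side in what follows.

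Rec8 was at 450.0, 324 and 257 CPM in MBD2a, above all Mbd3 KO libraries, and its log2 fold change was 2.84 ± 0.39 against WT and 0.89 ± 0.36 against Mbd3 KO (adjusted p = 0.141). Mov10l1 was at 9.50, 10.8 and 9.94 CPM in MBD2a and at 4.72, 3.52 and 2.83 CPM in Mbd3 KO. These groups did not overlap, and the difference was not called (log2 fold change 1.46 ± 0.55, adjusted p = 0.113). Dazl went the other way, at 16.2, 21.7 and 21.7 CPM in MBD2a, below every Mbd3 KO library, again without a call (log2 fold change -0.97 ± 0.76, adjusted p = 0.499). Sycp2 was at 4.00, 4.04 and 4.03 CPM in MBD2a, nearly the same in all 3, and rose by 3.84 ± 0.53 against WT (adjusted p = 1.26e-05). Tdrkh was at 17.6, 14.4 and 9.35 CPM, and it fell against WT by 1.71 ± 0.24 on the log2 scale (adjusted p = 1.39e-05). The rise of Dazl against WT, 2.21 ± 0.83 (adjusted p = 0.0304), was not called without s01, s02, s14 or s15, with adjusted p-values of 0.113, 0.109, 0.0566 and 0.0604. Mael (2.14 ± 0.62), Stk31 (2.24 ± 0.72), Hormad2 (2.37 ± 0.55), Msh4 (1.84 ± 0.56) and Kit (1.16 ± 0.21) were called in MBD2a but not in Mbd3 KO, which does not show that the lines differ, since none of the 5 was called between them. Markers of other cell types moved in MBD2a as well, since against WT all 8 pluripotency, 4 of 8 primitive endoderm and 4 of 7 trophoblast markers rose, and all 8 neural progenitor, 5 of 6 fibroblast and feeder and 1 of 7 trophoblast markers fell. The summed trophoblast markers were at 432 CPM in s15 and at 87.1 and 92.7 CPM in s13 and s14. The part of these markers' cells in the germline values was not tested.

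MBD2t, from a single clone, gave the most calls. Against WT, 31 of the 42 rose where 18.2% of all tested genes did, and 4 fell, Tdrkh, Tdrd9, Msh5 and Brdt, where 15.1% did. Over the 42 genes the median was 1.84 (log2). Against Mbd3 KO none was called by edgeR or DESeq2, beside 0.00603% of all tested genes called higher and 0.0181% called lower, and 1 had an unadjusted p-value under 0.05, beside 3.44% of all tested genes. Dazl was at 42.2, 37.1 and 33.7 CPM, close to its level in Mbd3 KO, and Tex14 was at 24.5, 24.4 and 24.8 CPM. Its 3 libraries lay closer together than those of the other lines, with a median over the 42 genes of 2.32, 2.19 and 2.23 above WT on the log2 scale. Across the 3 lines, 22 of the 42 genes rose in each, 2 fell in each (Tdrkh and Tdrd9), and 5 were called in none. Of all tested genes, 13.6% rose in each, 11% fell in each and 59.5% were called in none, and the 3 comparisons share the WT libraries.

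**Figure D4:**
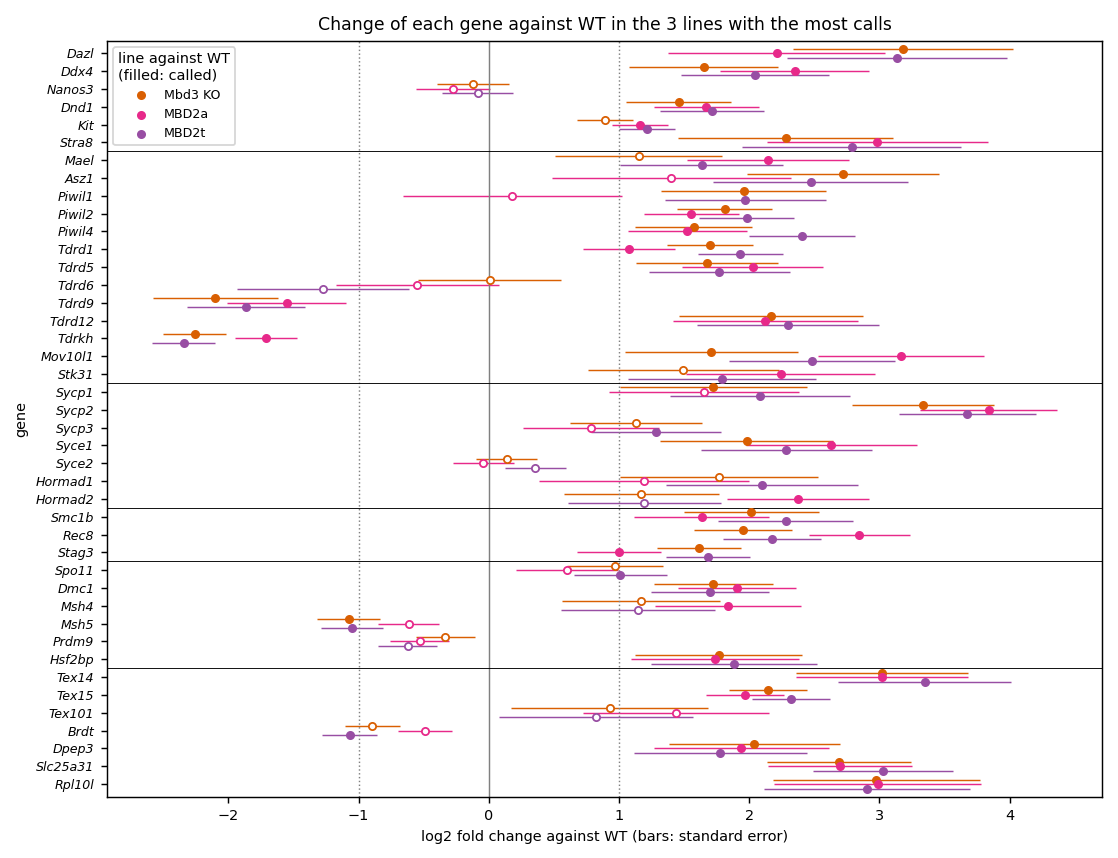
Log2 fold change against WT (horizontal axis, bars are standard errors) of each of the 42 genes in Mbd3 KO, MBD2a and MBD2t, with filled points for called genes and dotted lines at the threshold of 1. Most genes lie right of 1 in all 3 lines, and Tdrkh is lowest at -2.26, -1.71 and -2.34.

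In MBD2adGR the median log2 fold change of the 42 genes was 0.28 against WT and -1.10 against Mbd3 KO. Against WT, 1 of the 42 was called higher in MBD2adGR where 2.69% of all tested genes were, and none lower where 2.47% were. That gene was Rec8, at 90.7, 173 and 127 CPM, above every WT library and with a log2 fold change of 1.44 ± 0.37 (adjusted p = 0.0256). Ddx4 was at 5.44, 13.5 and 10.5 CPM, where s16 lay below the WT library s03 and s17 near the top of Mbd3 KO (log2 fold change against WT 1.51 ± 0.58, adjusted p = 0.103). Without s16 the count against WT was 8, beside 11.4% of all tested genes, and without the WT library s03 it was 7, beside 6.68%. It was 0 without s17, s18, s01 or s02. The summed primitive endoderm markers were at 3528 CPM in s18 and at 283 to 381 CPM in the other MBD2adGR libraries, against 179 to 257 CPM in WT, and their part in these values was not tested.

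Against Mbd3 KO, 16 of the 42 fell in MBD2adGR where 15.3% of all tested genes did, and Tdrkh rose where 9.86% did. Against MBD2a, 15 fell where 10.6% did, and Tdrkh again rose where 8.02% did. Dazl was at 1.57, 6.55 and 4.65 CPM, and its log2 fold change was -3.18 ± 0.85 against Mbd3 KO and -2.22 ± 0.84 against MBD2a. Stag3, at 13.9, 16.3 and 9.94 CPM, was in or below the range of WT and below every MBD2a library (log2 fold change against MBD2a -1.41 ± 0.33). Stra8, at 242, 758 and 457 CPM, reached into the Mbd3 KO range and was not called against any of the 3 lines. The 16 calls against MBD2a became 9 without the MBD2a library s15 and 5 without s16, beside 13.6% and 13.2% of all tested genes.

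In the point mutant MBD2aR181C the median over the 42 genes spread the most between libraries of the 8 lines, from -0.20 to 1.87 on the log2 scale relative to WT. Against WT none of the 42 was called by edgeR or DESeq2, beside 0.00603% of all tested genes called higher and 0.0121% called lower, and 5 had an unadjusted p-value under 0.05, beside 3.95% of all tested genes. Over the 42 genes the median was 0.68 (log2). Dazl was at 1.25, 19.8 and 6.19 CPM in s19, s20 and s21, so that s19 was near the lower WT libraries and s20 within the MBD2a range. Tex14 followed the same order, at 1.36, 13.3 and 3.97 CPM. Tdrkh was at 48.8, 31.6 and 41.4 CPM, with s20 the lowest and all 3 well above Mbd3 KO.

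Against Mbd3 KO, 13 of the 42 fell in MBD2aR181C where 18.1% of all tested genes did, and Tdrkh and Tdrd9 rose where 13% did. Against MBD2a, 13 fell where 15.1% did, and Tdrkh and Tdrd9 rose where 12.2% did. These numbers moved with each of the 3 MBD2aR181C libraries. Against Mbd3 KO, the 15 calls became 27 without s20, 9 without s19 and 11 without s21, beside 34.6%, 26.6% and 28.1% of all tested genes called in either direction. Against MBD2a, the 15 calls became 33 without s20, 5 without s19 and 9 without s21, beside 31.3%, 21% and 23.4% of all tested genes. MBD2adGR and MBD2aR181C share the MBD2a and Mbd3 KO libraries they are compared with, and the test between the 2 mutants was not run.

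The library highest for the germline genes was mostly also the highest of its line for pluripotency markers. The summed CPM of Pou5f1, Nanog, Zfp42, Esrrb, Tdgf1, Utf1, Klf4 and Tfcp2l1 was 26.03, 42.1 and 129 in s01, s02 and s03, and 29.8, 276 and 99.9 in s19, s20 and s21. It was 305 to 852 CPM in Mbd3 KO, 364 to 605 CPM in MBD2a and 492 to 604 CPM in MBD2t. In 7 of 8 lines the library with the highest median of the 42 genes also had the highest pluripotency sum, the exception being MBD2adGR, where s17 led for the germline genes and s18 for the markers. None of the 8 pluripotency markers was at 0 in every library of a line. Both quantities come from the same libraries, and what part undifferentiated cells had in the germline values was not tested. Gonadal somatic markers, which would come with gonadal cells, summed to 8.52 to 16.3 CPM over all 24 libraries, with Fshr at 0 in every WT library and read in Mbd3 KO.

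**Figure D5:**
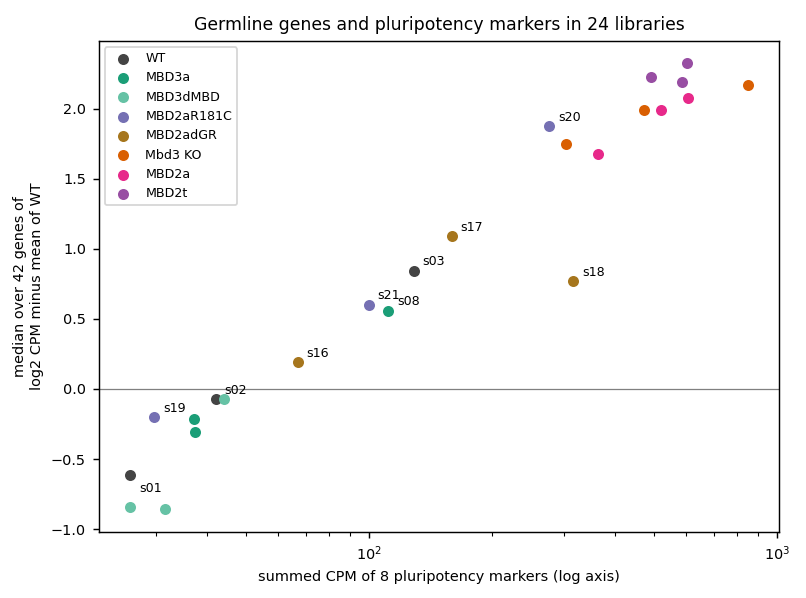
Median over the 42 genes of log2 CPM minus the mean of WT (vertical axis) against the summed CPM of 8 pluripotency markers (horizontal log axis), 1 point per library. WT, MBD3a and MBD3dMBD libraries lie low on both axes, Mbd3 KO, MBD2a and MBD2t high on both, and s03, s20 and s17 above the other libraries of their lines.

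A further list of 43 germline genes outside the 42 was read for context. It too was chosen with earlier results of these data known. Of the 43, 31 passed the filter on low counts. In Mbd3 KO, 23 of the 43 rose where 19.6% of all tested genes did, and none fell where 14.2% did. Those tested had a median of 2.54 on the log2 fold change scale. Among the 12 that did not pass, Prm1, Pgk2 and Acrv1, which act in late sperm formation, had no counts in WT or Mbd3 KO and were not detectable at this depth. Sohlh1, a transcription factor of early germ cells and with the largest log2 fold change of the list, was at 0.376, 0.660 and 0.438 CPM in WT and at 144, 144 and 125 CPM in Mbd3 KO. In WT s03 did not stand apart for this gene, unlike Dazl or Stra8, and the log2 fold change was 8.12 ± 0.41 (adjusted p = 1.21e-10). It was at 8.40, 9.63 and 15.6 CPM in MBD2a and at 95.4, 119.97 and 167 CPM in MBD2t.

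Sohlh1 was therefore among the genes that separated MBD2a from Mbd3 KO, with a log2 fold change of -3.61 ± 0.30 (adjusted p = 4.81e-07) between them, and in MBD2aR181C it stayed at 0.276, 0.912 and 0.635 CPM, also in s20. The partner gene Sohlh2 was at 4.81 ± 5.70 CPM in WT and 119 ± 2.85 CPM in Mbd3 KO (n = 3 each) and was not called between MBD2a and Mbd3 KO. Tex19.1, a germ cell and placenta gene, rose to 89.9 ± 10.4 CPM from 8.65 ± 9.53 CPM (n = 3 each). Taf7l, a germ cell TFIID subunit, rose to 12.4 ± 2.06 CPM from 0.973 ± 0.886 CPM. Tfap2c, a factor of primordial germ cells and trophoblast, rose to 155 ± 36.1 CPM from 11.3 ± 7.49 CPM. Of the 43, 22 rose in MBD2a where 16.9% of all tested genes did, and 24 in MBD2t where 18.2% did, both against WT. The median log2 fold change against WT was -0.14 in MBD3a, -0.83 in MBD3dMBD, 0.42 in MBD2adGR and 0.68 in MBD2aR181C.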

How the data were processed

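RNA was poly(A)-selected and sequenced by the authors, who trimmed reads with Trim Galore, aligned them with STAR to NCBIM37 (mm9) and counted reads per gene of GENCODE M1 with QuasR. The deposited values are these raw counts, not normalized. The strand setting of the counting is not given in the sources used here. Columns name the line, not the replicate, and libraries were grouped by line. The ChIP-seq libraries were not analysed here. The count columns of the point mutant are named MBD2aR64C, the labels say MBD2aR181C, which is used here, and the study's text gives yet another position. The columns were assigned to this line because it is the sole point mutant of MBD2a among the labels.

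After filterByExpr and TMM scaling, all 24 libraries entered 1 quasi-likelihood fit of edgeR 4.0.16 (R 4.3.3) with the line as factor and legacy set to false. CPM values use TMM-scaled library sizes, and log2 CPM a prior count of 1. The SE of a log2 fold change was taken as its size over the root of the F statistic. Alternatives were DESeq2 1.42.0, RLE scaling, no filter, other thresholds, fits of fewer lines and leaving out each library. The procedure was tested on simulated data for 16288 genes. An exact two-sided permutation test of 3 libraries against 3 cannot go below p = 0.1, so none is given. P-values weigh a difference against the spread between these libraries, estimated over all lines. That estimate includes the MBD2t repeats of 1 clone. Without MBD2t, the genes called against WT went from 856 to 472 for MBD2adGR and from 5609 to 5456 for Mbd3 KO. Replicates within a line differed by more than counting noise. Floors of 3 counts cover counting error only.

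The 42 genes, the other germline genes, the gene lists for repressors and demethylation, and the marker lists were chosen with earlier results of these data known. Named with values are members called in Mbd3 KO against WT with a mean of at least 1 CPM in either line, Dazl, Ddx4, Mael, Sycp3, Tdrd5, Slc25a31, Kit and Tdrkh, and members called in MBD3a, MBD3dMBD, MBD2adGR or MBD2aR181C against WT. Other genes named were chosen after their values were seen. Promoters come from RefSeq and gene positions from GENCODE M1 on NCBIM37.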

Additional observations from a re-analysis of the deposited data

How the results depend on the processing

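None of the 92 calls of single genes against WT in Mbd3 KO, MBD2a and MBD2t changed direction under an alternative. Direction was not checked gene by gene in the other comparisons. No paired analysis was possible because the count columns carry no replicate numbers. Testing against a log2 fold change of 1 with glmTreat lowered the counts of called members. Against WT they became 14 for Mbd3 KO, 13 for MBD2a, 17 for MBD2t and 0 for MBD2adGR. Of the 16582 tested genes glmTreat called 3469, 2742, 3474 and 54 there, and the main test 5609, 5077, 5531 and 856. Against Mbd3 KO they became 15 for MBD3a, 7 for MBD2adGR and 2 for MBD2aR181C, beside 3237, 2289 and 2968 of all tested genes. Against MBD2a they became 0 for MBD2adGR and 4 for MBD2aR181C, beside 1061 and 2043. Fits of the 2 lines alone gave 0 for MBD2adGR against WT, 1 for MBD2a and 9 for MBD2aR181C against Mbd3 KO, and 7 for MBD2aR181C against MBD2a. Of all genes these fits called 13, 241, 4664 and 3732, in that order. MBD2adGR against WT had 3 calls with DESeq2, 0 without MBD2t and 2 with no fold change threshold. Of all genes, 1108 were called there with DESeq2 and 472 without MBD2t. The legacy test of edgeR, added after the data were seen, gave 10 for MBD2adGR against MBD2a, beside 2921 of all genes. Against WT, leaving out 1 library in turn gave 20 to 34 calls for Mbd3 KO and 22 to 30 for MBD2a. It gave 27 to 36 for MBD2t and 0 to 8 for MBD2adGR. Of all tested genes, 30.5% to 34.8%, 26% to 32.4%, 30.2% to 34.7% and 0.722% to 11.4% were called, in that order. Against Mbd3 KO, leaving out 1 library gave 23 to 31 for MBD3a and 33 to 35 for MBD3dMBD. MBD2a had 0 to 1, MBD2adGR 13 to 17 and MBD2aR181C 9 to 27. The shares of all tested genes there were 29.8% to 32.2%, 34% to 36%, 3.13% to 7.69%, 21.6% to 28.5% and 26.6% to 34.6%. Against MBD2a, MBD2adGR had 5 to 15 and MBD2aR181C 5 to 33, beside 13.2% to 22.9% and 21% to 31.3%. The other counts stayed at 0 to 0, beside at most 0.232% of all tested genes. For Mbd3 KO the highest count came without s03 and the lowest without s01. Of the genes called against WT, 14 of 28 in Mbd3 KO, 13 of 29 in MBD2a and 17 of 35 in MBD2t were called under every alternative. These equal the counts with glmTreat, which tests a stricter hypothesis, so no other alternative removed a further gene.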

Other observations

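Factors known to keep germline genes silent were mostly transcribed in every line. Of 20 genes for the Polycomb complex with E2F6 and MGA, for DNA methylation and for H3K9 methylation, 3 rose in Mbd3 KO against WT and none fell, with a median log2 fold change of -0.02. That is 15% of the list, under the 19.6% of all tested genes that rose, while 14.2% of all tested genes fell. The 3 were Dnmt3l, the cofactor of de novo methylation, from 2.04 ± 1.94 to 55.2 ± 56.3 CPM, Dnmt3b, a de novo methyltransferase, from 21.99 ± 4.48 to 57.8 ± 9.36 CPM, and Rybp, a Polycomb subunit, from 70.1 ± 11.1 to 208 ± 58.1 CPM (mean ± SD, n = 3 each). E2f6 was at 55.3 ± 6.37 CPM in WT and 35.5 ± 3.35 CPM in Mbd3 KO, with a log2 fold change of -0.64 ± 0.11 that was under the threshold on fold change (edgeR adjusted p = 5.66e-05). Ring1, Rnf2, Yaf2, Cbx3 and Ehmt1 had log2 fold changes between -0.82 and -0.67 and also missed that threshold. These genes and E2f6 were picked after their values were seen, and 9 of the 20 had a log2 fold change above 0. Groups were fully apart for 12 of the 20, 6 above WT and 6 below, as for 62.2% of all tested genes. An unadjusted p-value under 0.05 was found for 64.1% of all tested genes. Mga and Max were at 143 and 62.0 CPM in WT and at 155 and 73.1 CPM in Mbd3 KO.

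Of 4 genes for DNA demethylation, none was called in Mbd3 KO against WT by edgeR. Of all tested genes, 19.6% were called higher and 14.2% lower. An unadjusted p-value under 0.05 was found for 2 of the 4 genes, beside 64.1% of all tested genes. Tdg, a glycosylase, had a log2 fold change of -0.88 ± 0.10 (adjusted p = 1.00e-06), and Tet3 had one of -0.90 ± 0.37 (adjusted p = 0.0407). In MBD2a against WT, Tet3 was called lower with a log2 fold change of -1.04.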
